A study of Mus musculus with 16 samples.

Results

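Cytosolic ribosomal protein genes were taken as the protein-coding genes of GENCODE M21 (mouse genome GRCm38) whose symbol starts with Rpl or Rps followed by a digit, together with Rplp0, Rplp1, Rplp2 and Rpsa and without the S6 kinase genes (Rps6k). This rule found 92 of the 55421 genes counted, 57 of the large subunit by symbol and 35 of the small subunit. Of these, 4 lie on the X chromosome (Rps4x, Rpl10, Rpl36a and Rpl39) and 88 lie on the 19 autosomes. The rule reads symbols only, so it also took in paralogs such as Rpl10l, Rpl39l and Rps27l, genes that the annotation calls protein coding although their names end in ps and a number, and Rps19bp1, whose product binds a ribosomal protein and is not one. After the filter on low counts, 89 members remained among 18150 genes tested, and the 3 that did not (Rpl9-ps1, Rpl36-ps4 and Rps12-ps3) had at most 10 reads each over all libraries.

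RNA-seq libraries came from wild-type (Wt) and Spen-/- female mouse embryonic stem cells (ESCs) of an F1 hybrid between 129/Sv and Cast/Ei, in which reads over strain variants can be assigned to the 129 or the Cast chromosome. Wt and Spen-/- cells alike carried a doxycycline (dox)-responsive promoter at the endogenous Xist gene of the Cast X chromosome, and in Spen-/- cells the open reading frame of Spen had been replaced by a puromycin resistance cassette on both alleles. Each of 8 conditions had 2 libraries: both genotypes at day 0 without dox, at day 0 after 4 days of 2 µg/mL dox, at day 3 of monolayer differentiation without dox, and at day 7 of differentiation with dox. Dox-treated cells had been sorted for the dsRed reporter and untreated cells had not, so dox and the sort cannot be told apart, and neither can day and dox between day 3 and day 7. ESCs were kept on male feeder cells, which were reduced by plating before differentiation. The study calls the libraries of a condition biological replicates, and the sources used here do not say whether they came from separate clones or cultures, so p-values measure only the spread between these libraries.

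Ribosomal proteins assemble with ribosomal RNA in the nucleolus into a large and a small subunit, and each is needed in nearly equal number, so their genes are among the most active in growing cells and are usually regulated together. Their mRNAs start with a run of pyrimidines that puts their translation under mTOR control. In female cells most X-linked genes are silenced on 1 X chromosome through Xist RNA and its cofactor SPEN, and the X-linked ribosomal protein genes must supply their subunits from the remaining copy. Processed copies of ribosomal protein mRNAs have entered the mouse genome many times, which makes short reads from these genes hard to place.

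The 110 bases around the annotated start (90 before, 20 after) of the X-linked members are shown because these are the members whose silencing the study design addresses. They come from RefSeq (GRCm38.p6), run 5′ to 3′ on the gene's strand and have matches to GGAAG (the core bound by ETS factors, CTTCC on the other strand) or TATAA in capitals. A match is only a match of letters.
Rps4x, chrX:102189372-102189481, minus strand: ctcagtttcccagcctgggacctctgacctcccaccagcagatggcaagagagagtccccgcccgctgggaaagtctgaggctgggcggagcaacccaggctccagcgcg
Rpl10, chrX:74270726-74270835, plus strand: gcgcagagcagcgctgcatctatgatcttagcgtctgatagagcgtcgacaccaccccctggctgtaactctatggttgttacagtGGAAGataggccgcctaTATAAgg
Rpl36a, chrX:134585564-134585673, plus strand: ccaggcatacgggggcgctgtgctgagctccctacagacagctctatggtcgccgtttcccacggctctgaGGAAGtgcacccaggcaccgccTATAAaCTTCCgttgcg
Rpl39, chrX:37085203-37085312, minus strand: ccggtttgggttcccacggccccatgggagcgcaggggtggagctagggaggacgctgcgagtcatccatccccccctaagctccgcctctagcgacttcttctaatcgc
In the full RefSeq windows (250 bases before to 50 after the start), GGAAG on either strand occurred in 92.4% of the 66 members that matched a promoter by symbol and in 71.1% of all 27025 promoters. AAGATGG was found in 13.6% against 6.48%, TATAA in 25.8% against 25.5% and CTTTTC in 24.2% against 21.8%. These shares describe letters in a window and were not tested.

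The second set of sequences shows why reads of these genes are hard to assign. The submitters counted only reads with 1 genomic position, and the reads were 50 bases long. Each 50-base stretch of a member's principal transcript was therefore looked up in all GENCODE M21 transcripts. The stretch below each X-linked name is found without any difference in several other genes, nearly all of them processed copies.
Rpl10, transcript bases 266 to 315, shared with 10 genes: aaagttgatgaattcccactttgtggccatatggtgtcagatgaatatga
Rpl36a, transcript bases 90 to 139, shared with 4 genes: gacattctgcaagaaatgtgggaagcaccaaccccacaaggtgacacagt
Rpl39, transcript bases 302 to 351, shared with 5 genes: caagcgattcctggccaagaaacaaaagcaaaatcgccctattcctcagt
Rps4x, transcript bases 184 to 233, shared with 5 genes: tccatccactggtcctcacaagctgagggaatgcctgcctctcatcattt
The median member had 49.7% of its stretches to itself and shared the others with a median of 10 genes, and 5 of the 92 members shared none. The 78 mitochondrial ribosomal protein genes, which build the separate ribosome of mitochondria, had a median of 97.2% unique stretches. Among X-linked members the unique share was 14.6% for Rpl10, 14.5% for Rpl36a, 27.8% for Rps4x and 83.5% for Rpl39. For the first 3, only a small part of the principal transcript was thus unique. Where in a gene the counted reads lie was not looked at. All levels below are levels of placeable reads.

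Libraries held 7571566 to 14822867 reads on genes (median 9634647.5), of which 13% to 15.3% could be assigned to an allele, and 20.4% to 33.2% of all reads in the files had been set aside as mapping to several places. Spen was at 16.2 to 43.5 CPM (counts scaled to library size, with TMM factors) in Wt and at 0.129 to 5.45 in Spen-/- libraries. Xist was at 180.7 and 282.0 CPM in Wt ESCs with dox at day 0 and at 995.3 and 741.2 CPM by day 7, against 80.9 and 38.6 CPM and 199.4 and 75.1 CPM in Spen-/- cells. The summed level of 8 ESC markers (Pou5f1, Nanog, Sox2, Zfp42, Esrrb, Klf4, Tfcp2l1 and Dppa5a) was 187.0 and 187.5 CPM in Wt at day 7 and 2735 and 2645 CPM in Spen-/- at day 7, and none of the 8 was at 0. Of 12 feeder markers, the summed level was 835.0 and 720.5 CPM in Wt at day 7, most of it Fn1, and 299.5 and 207.2 CPM in Spen-/- at day 7, with the Y-linked markers Ddx3y, Eif2s3y, Kdm5d and Uty at 0 in both Wt libraries. Of 10 differentiation markers, 7 were higher in Wt than in Spen-/- cells at day 7 without overlap (summed level 464.8 and 446.7 CPM against 166.2 and 162.1 CPM), beside 33.2% of all genes. Their sum was higher at day 0 with dox, at 1215 and 842.3 CPM in Wt and 752.1 and 486.1 CPM in Spen-/- cells. From there to day 7, 5 of the 10 rose and 3 fell in Wt without overlap, beside 29.3% and 28.6% of all genes. In Spen-/- cells 1 rose and 5 fell without overlap, beside 16.5% and 24.3% of all genes. In bulk libraries fewer cells of a type and less RNA per cell cannot be told apart.

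Per length of exon, the members spanned a wide range of levels. Among the highest mean levels over the 16 libraries, in RPKM (reads per kilobase of exon, scaled to library size), were those of Rpl4 (1135, 866 to 1373) and Rps27l (808, 363 to 1359), an S27 paralog known as a p53 target. The lowest belonged to the 3 members that missed the filter, at 0 for Rpl36-ps4, 0.012 for Rps12-ps3 and 0.116 for Rpl9-ps1. Of the X-linked members, Rps4x ranked at 21 of 92 (mean 202.8 RPKM), Rpl10 at 31 (170.5 RPKM), Rpl36a at 45 (101.4 RPKM) and Rpl39 at 49 (95.7 RPKM), beside a median member at 99.1 RPKM. The ranges of all 4 over the libraries overlapped, and a level that counts only unique reads understates a gene with many copies. Across the 90 members with more than 1 read, log2 mean RPKM and the unique share had correlations near 0, given as a description (Pearson's r = -0.0452, Spearman's rho = 0.0701 across genes, which are not independent replicates). The spread over libraries, as the SD of log2 CPM, was largest for Rpl10l (1.62) and Rpl39l (1.33) and smallest for Rpl4 (0.185) and Rpl28 (0.198), both of the large subunit, among the 89 members that passed the filter.

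The members together took 1.48% to 3.04% of reads on genes, with the lowest shares at day 7. Their summed share was 2.23% and 2.50% of reads on genes in Wt ESCs at day 0, 2.64% and 2.16% with dox, 2.82% and 2.59% at day 3, then 1.59% and 1.48% at day 7. Spen-/- cells gave 2.68% and 2.58% at day 0, 3.04% and 2.73% with dox, 2.53% and 2.51% at day 3, then 1.89% and 1.75% at day 7. The 4 day 7 libraries were thus lower than the 12 others, and the Spen-/- libraries of day 7 lay above the Wt ones without overlap. On the log2 scale the share changed by -0.65 in Wt (1.53% ± 0.0792 against 2.4% ± 0.342, SD, n = 2) and by -0.66 in Spen-/- cells (1.82% ± 0.0988 against 2.89% ± 0.224, SD, n = 2) from day 0 to day 7 with dox, and the genotypes differed by 0.25 at day 7. With 2 libraries against 2, the smallest p that an exact permutation test can give is 0.333, so no test of these shares was run. With all reads in the file as the denominator, the genotype difference at day 7 was 0.07. Reads set aside as mapping to several places, which include reads of these members, made up 20.7% ± 0.395 (SD, n = 2) of reads in Wt and 28.7% ± 2.96 (SD, n = 2) in Spen-/- cells at day 7, and their part in the difference was not tested.

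**Figure D1:**
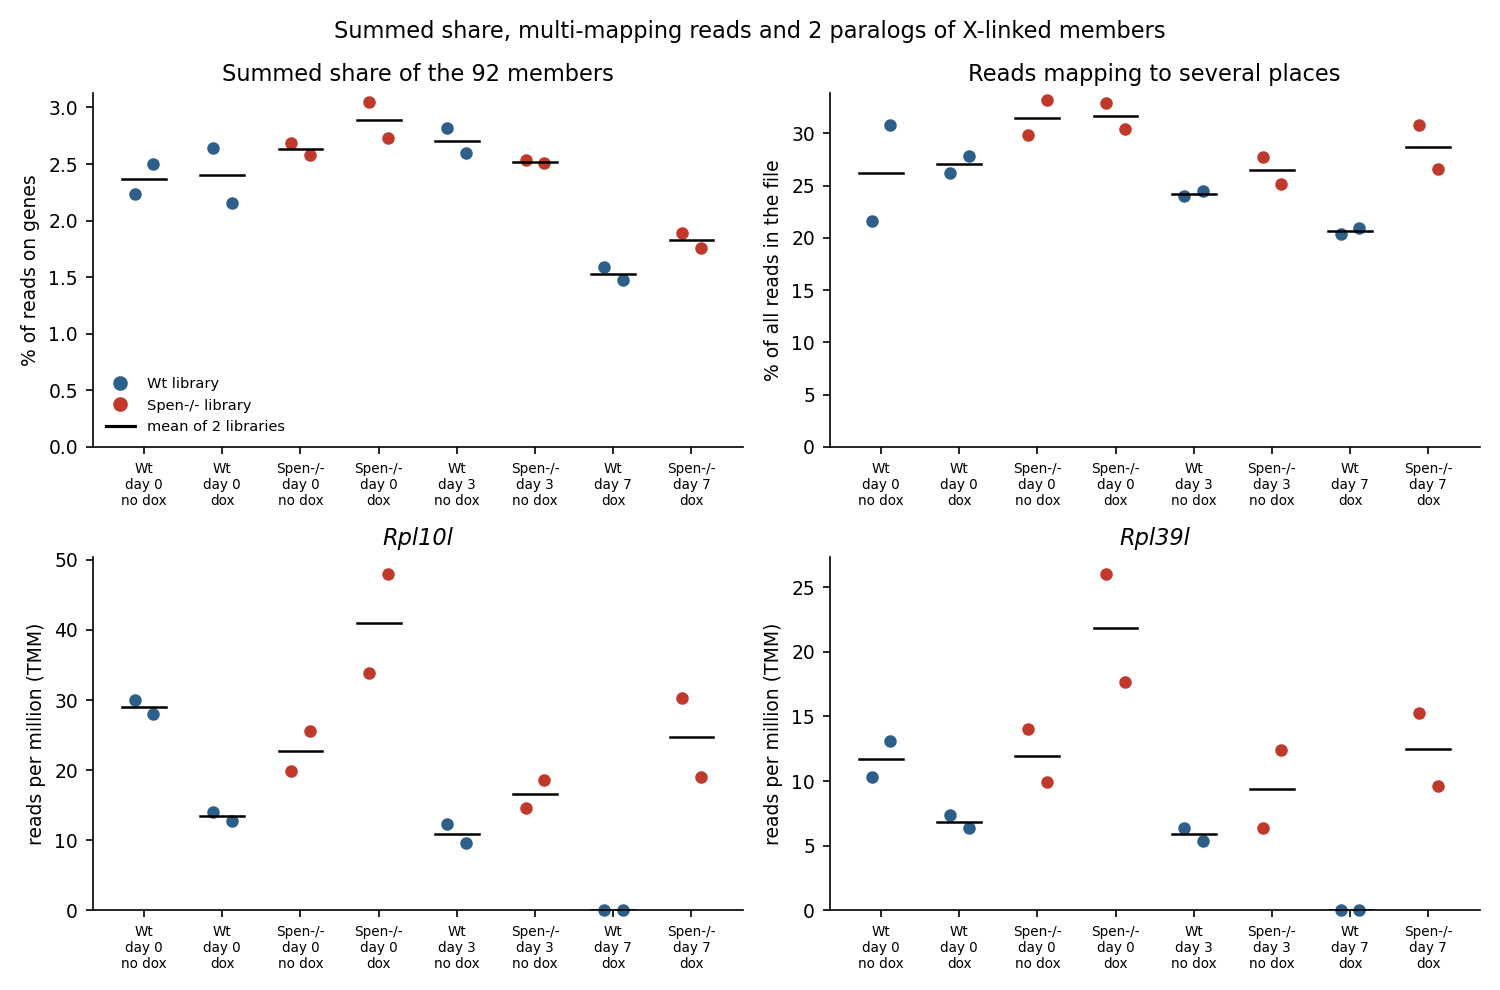
The upper panels plot, per library, the summed share of the 92 ribosomal protein genes (% of reads on genes) and the share of reads mapping to several places (% of all reads), and the lower panels plot Rpl10l and Rpl39l (CPM after TMM scaling) by condition, with points for libraries and lines for means of 2. Day 7 libraries have the lowest summed shares, and both paralogs are at 0 in the 2 Wt libraries of day 7.

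At day 7 with dox, 15 members were higher and 0 lower in Spen-/- than in Wt cells (edgeR's quasi-likelihood test, Benjamini-Hochberg adjusted p under 0.05), beside 3.1% of all genes tested called higher. They were 3 of the 4 X-linked members and 12 of the 85 autosomal members tested. The large subunit members among them were Rpl10, Rpl26, Rpl35a, Rpl36a, the paralogs Rpl10l and Rpl39l, and Rplp2 of the acidic stalk that recruits elongation factors. The small subunit members included Rps4x, Rps6 (the substrate of S6 kinase), Rps7, Rps16 and Rps21. The fitted change was above 0 in 81 of 89 members, with a median of 0.47 over members (log2) beside -0.14 over all genes tested. The 2 libraries of each genotype did not overlap in 65 members that were higher in Spen-/- cells and in 1 that was lower, against 19.6% and 33.2% of all genes. Without replicate 1 or 2 of Wt day 7 the count of calls was 4 or 6, and in a fit of only the 4 libraries it was 0. The ESC markers, at 187.0 to 187.5 CPM in Wt and 2645 to 2735 CPM in Spen-/- libraries, separated the same groups, with 7 of 8 higher in Spen-/- cells without overlap and Pou5f1 higher in Wt (52.9 and 48.1 against 29.7 and 19.8 CPM). The number of genes detected also separated them, at 21015 and 20147 in Wt and 15324 and 14969 in Spen-/- libraries, the latter the lowest of all 16. The part of either in the result was not tested.

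All 4 X-linked members had higher levels at day 7 in Spen-/- cells than in Wt without overlap, and 3 of them passed the test. Rps4x, which encodes a protein of the small subunit, was at 150.8 and 137.8 CPM in Wt and at 266.1 and 346.5 CPM in Spen-/- libraries. Rpl10, needed late in the assembly of the large subunit, was at 149.2 and 127.5 CPM against 313.7 and 285.3 CPM. Rpl36a, of the large subunit, was at 67.2 and 66.2 CPM against 145.3 and 158.2 CPM. All Wt values of these 3 genes were below all Spen-/- values, and the Spen-/- libraries of Rps4x differed most from each other. Rpl39, whose short protein lies in the wall of the peptide exit tunnel, was at 56.6 and 49.8 CPM against 122.1 and 80.8 CPM, again without overlap but with more spread in Spen-/- cells. In log2, Spen-/- exceeded Wt by 1.11 for Rpl10 (SE 0.262, adjusted p = 0.0242 by edgeR), 1.09 for Rps4x (SE 0.166, adjusted p = 0.0023 by edgeR) and 1.19 for Rpl36a (SE 0.191, adjusted p = 0.00297 by edgeR). For Rpl39 the value was 0.93 (SE 0.373, edgeR adjusted p = 0.159), which did not pass. The autosomal members had a median of 0.47, and 78, 78, 81 and 75 of the 85 had a smaller value than Rpl10, Rps4x, Rpl36a and Rpl39. All X-linked genes tested had a median of 0.53 and all autosomal genes -0.17, and the median of the 4 X-linked members was 1.1. The edgeR call of Rpl10 was lost without either Wt day 7 library (adjusted p = 0.108 and 0.174) or without Spen-/- day 7 replicate 1 (adjusted p = 0.0629).

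**Figure D2:**
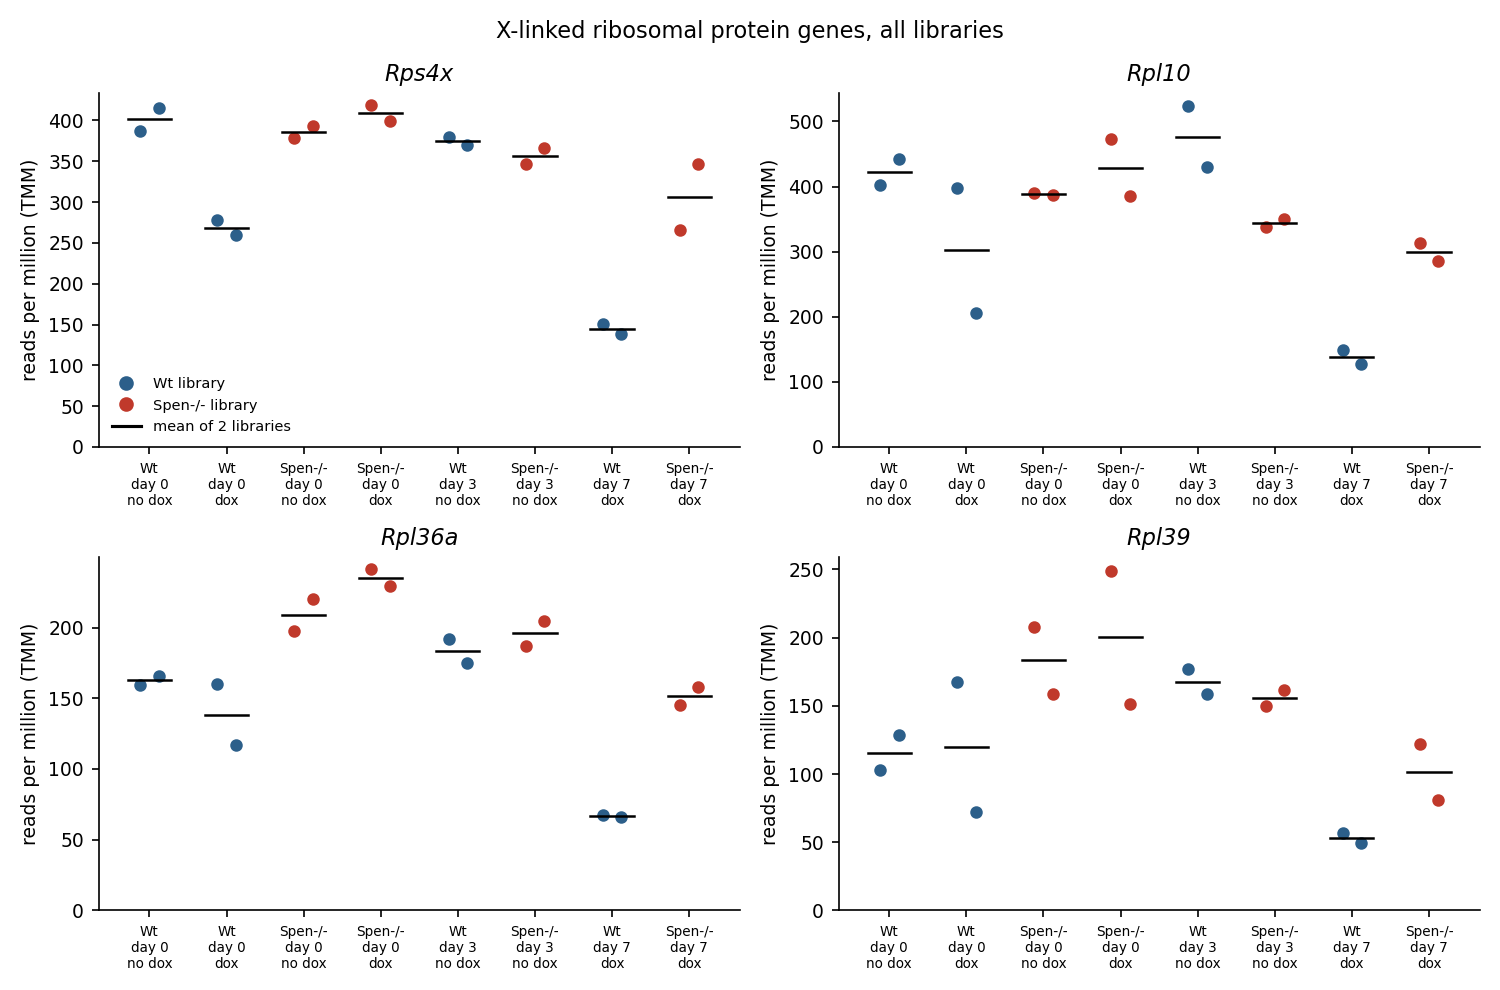
Level (CPM after TMM scaling) of the 4 X-linked members in each of the 16 libraries by condition, with points for libraries and lines for the means of 2. In each panel the Wt libraries of day 7 are the lowest values, and those of Spen-/- day 7 lie above them.

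Before differentiation the X-linked members differed less, and none of them passed the test. Without dox, Rps4x was at 387.4 and 415.8 CPM in Wt and 378.0 and 393.0 CPM in Spen-/- ESCs, which overlapped. Rpl10 was at 402.4 and 442.1 CPM against 389.8 and 386.6 CPM, lower in Spen-/- ESCs without overlap. Rpl36a (159.5 and 165.7 CPM against 197.4 and 220.2 CPM) and Rpl39 (103.1 and 128.4 CPM against 208.0 and 159.0 CPM) were higher in Spen-/- ESCs without overlap. Their log2 differences without dox were 0.36 and 0.67, beside a median of 0.19 for autosomal members. Both had the same direction as at day 7, and the part of such earlier differences in the day 7 result was not tested. With dox, Rps4x was at 277.6 and 259.3 CPM in Wt and 418.9 and 399.2 CPM in Spen-/- ESCs, where the groups did not overlap. Rpl10 was at 398.4 and 205.5 CPM in Wt with dox and at 472.5 and 385.9 CPM in Spen-/- with dox, where they did. The 2 dox-treated Wt libraries also stood apart from each other in Rpl39 (167.3 and 72.0 CPM) and in Rpl36a (159.8 and 116.7 CPM). Summed ESC markers separated the same groups, at 2599 and 3459 CPM in Wt and 5420 and 6063 CPM in Spen-/- ESCs with dox. Without dox they were at 5625 and 8480 CPM in Wt and 6623 and 7733 CPM in Spen-/- ESCs. Summed differentiation markers in Wt were at 1215 and 842.3 CPM with dox and 369.8 and 317.3 CPM without. The part of these markers in the day 0 differences was not tested. At day 3, Rps4x was at 379.3 and 369.4 CPM in Wt and 346.7 and 365.6 CPM in Spen-/- cells, close to the levels of day 0 without dox. Rpl10 was at 523.1 and 429.5 CPM in Wt and 338.3 and 350.2 CPM in Spen-/- cells at day 3. It was thus lower in Spen-/- cells without overlap, opposite to day 7 (log2 difference -0.47, not called). Rpl36a and Rpl39 overlapped between genotypes at day 3.

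Dox at day 0 changed Rps4x by -0.58 (SE 0.164, edgeR adjusted p = 0.333) and Rpl10 by -0.48 (SE 0.259, edgeR adjusted p = 0.746) in Wt ESCs on the log2 scale. In Spen-/- ESCs the same comparison gave 0.09 (SE 0.164) and 0.14 (SE 0.259), and the difference between genotypes was 0.67 for Rps4x (SE 0.232, edgeR adjusted p = 0.831) and 0.63 for Rpl10 (SE 0.366, edgeR adjusted p = 0.868). For Rpl36a and Rpl39 the change with dox was -0.23 and 0.05 in Wt and 0.17 and 0.13 in Spen-/- ESCs. Their differences between genotypes were 0.40 and 0.08. The medians in Wt were -0.36 for X-linked members, -0.02 for autosomal members and -0.52 for all X-linked genes tested. No member passed in either genotype: 0 of 89 in Wt, beside 0.149% of all genes called, and 0 of 89 in Spen-/- ESCs, beside 0.0716%. At an unadjusted p under 0.05, Wt had 2 members higher and 6 lower (7.15% of all genes in either direction) and Spen-/- 1 higher and 0 lower (8.09%). DESeq2 called 2 members lower in Wt (2.34% of all genes called) and 0 in Spen-/- ESCs (2.73%). For the difference between these effects the counts were 0 adjusted (0% of all genes), 3 unadjusted (5.83%) and 1 by DESeq2 (0.666%).

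Between genotypes at day 0, no member was called by edgeR with or without dox. Without dox the counts were 0 of 89 (0% of all genes called), 0 at an unadjusted p under 0.05 (4.56%) and 0 by DESeq2 (0.405%). With dox they were 0 (0.0826% of all genes), 23 higher and 1 lower unadjusted (10.2% in either direction) and 8 higher by DESeq2 (3.69%). The median with dox was 0.67 for X-linked members, from 0.51 for Rpl10 to 0.77 for Rpl36a, against 0.26 for autosomal members and 0.52 for all X-linked genes.

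Up to day 3 without dox, 1 member passed the test in Spen-/- cells and 0 in Wt. Rpl13a, a large subunit protein with a separate role in translational control, was at 127.7 and 114.5 CPM in Spen-/- ESCs and at 64.0 and 59.7 CPM at day 3, without overlap. Its log2 change of -0.97 (SE 0.204, edgeR adjusted p = 0.0447) was the 1 call of Spen-/- cells at day 3, beside 0.656% of all genes called lower, and leaving out any 1 of the 4 libraries ended it (edgeR adjusted p = 0.119 to 0.286). At an unadjusted p under 0.05, Spen-/- cells had 0 members higher and 5 lower at day 3, beside 1121 of 18150 genes lower. DESeq2 called 2 members lower, and the share of all genes that it called is not given here, so this count cannot be set against it. The libraries of both days did not overlap in 56 members that were lower and 4 that were higher in Spen-/- cells, against 21.8% and 24.6% of all genes, with a median of -0.18 over members (log2). In Wt cells, Rpl13a was at 115.7 and 110.5 CPM at day 0 and 89.8 and 81.8 CPM at day 3. Wt had 0 called members at day 3 (1.38% of all genes called), with 5 higher and 3 lower unadjusted (13.4%) and 4 by DESeq2 (8.22%). The genotypes at day 3 differed in 0 members (0% of all genes), 2 unadjusted (3.22%) and 0 by DESeq2 (0.107%). The day 3 effects differed in 0 members (0%), 1 unadjusted (3.43%) and 0 by DESeq2 (0.0221%).

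From day 0 to day 7 with dox, members were called lower in both genotypes and none higher. In Wt cells 32 of 89 members were lower and 0 higher (edgeR adjusted p under 0.05), beside 3.09% of all genes called lower, and in Spen-/- cells 18 were lower and 0 higher, beside 4.98%. The fitted change was below 0 in 86 of 89 members in Wt and in 89 of 89 in Spen-/- cells, with medians of -0.81 and -0.60 against 0.00 and -0.05 over all genes tested. The libraries of both days did not overlap in 83 members that were lower in Wt and 82 in Spen-/- cells, against 28.6% and 24.3% of all genes. The genotypes shared 12 called members, which were 37.5% of those in Wt and 66.7% of those in Spen-/- cells. They included Rplp0 and Rplp2 of the stalk, Rpl6, Rpl13a, Rpl27, Rpl31, Rpl35a and Rpl38 of the large subunit, and Rps9, Rps21 and Rps23 of the small subunit. In Wt the count was 9 without day 0 dox replicate 1 and 7 or 5 without day 7 replicate 1 or 2. In Spen-/- cells it was 4 without day 0 dox replicate 1 and 9 without day 7 replicate 2, and in a fit of only the compared libraries it was 18 in Wt and 0 in Spen-/- cells. The ESC markers fell over the same days, from 2599 and 3459 CPM to 187.0 and 187.5 CPM in Wt and from 5420 and 6063 CPM to 2735 and 2645 CPM in Spen-/- cells, and their part in the result was not tested.

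Rplp2 had the largest called fall in Wt after Rpl10l and Rpl39l, from 349.2 and 266.8 CPM to 130.4 and 105.7 CPM, without overlap (log2 change -1.38, SE 0.188, edgeR adjusted p = 0.00127). Its level in Spen-/- cells went from 389.6 and 330.0 CPM to 195.4 and 182.6 CPM and was also called. The largest falls among calls in Spen-/- cells were those of Rps12, Rpsa and Rpl13a. Rps12 went from 100.5 and 53.1 CPM to 31.4 and 28.8 CPM (log2 change -1.35, SE 0.371, edgeR adjusted p = 0.0449). Rpsa, also known as the laminin receptor precursor, went from 133.2 and 95.4 CPM to 46.0 and 46.0 CPM (log2 change -1.31, SE 0.292, edgeR adjusted p = 0.0179). Rpl13a went from 144.3 and 114.2 CPM to 58.5 and 50.2 CPM (log2 change -1.25, SE 0.205, edgeR adjusted p = 0.00387). In each of the 3, both day 7 libraries were below both day 0 libraries, and the higher day 0 value of Rps12 and Rpsa was that of replicate 1. Without that library the adjusted p by edgeR was 0.278 for Rps12 and 0.106 for Rpsa. Leaving out either Spen-/- day 7 library also ended both calls (edgeR adjusted p = 0.0888 and 0.115 for Rps12, 0.0515 and 0.0512 for Rpsa).

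The X-linked members were called lower from day 0 to day 7 in Wt cells for 3 of 4 genes and in Spen-/- cells for 0 of 4. From day 0 to day 7 the log2 changes in Wt were -1.13 for Rpl10 (SE 0.262, edgeR adjusted p = 0.0311), -0.90 for Rps4x (SE 0.165, adjusted p = 0.0093 by edgeR) and -1.05 for Rpl36a (SE 0.190, adjusted p = 0.0081 by edgeR), all called, and -1.17 for Rpl39 (SE 0.374, edgeR adjusted p = 0.113). Their median was -1.09 and that of autosomal members -0.79. In Spen-/- cells the values were -0.52, -0.42, -0.63 and -0.98, none called (edgeR adjusted p = 0.242, 0.148, 0.0613 and 0.133), with a median of -0.58 against -0.60 for autosomal members. The difference between the genotypes' changes was 0.61 for Rpl10, 0.48 for Rps4x, 0.42 for Rpl36a and 0.19 for Rpl39 and did not pass for any of them (edgeR adjusted p = 0.515, 0.391, 0.546 and 1). The calls of Rpl10, Rps4x and Rpl36a in Wt were lost without day 0 dox replicate 1 and without either day 7 library (edgeR adjusted p = 0.0561 to 0.253). As a share of all reads of members, the X-linked ones took 2.88% and 2.66% in Wt at day 7 and 4.22% and 4.36% in Spen-/- at day 7. In the other conditions this share was 3.04% to 4.80%, so the Wt day 7 libraries were the lowest and the dox-treated Wt ESCs (3.97% and 3.04%) the next. Both Wt libraries of day 3 (4.80% and 4.57%) lay above both Spen-/- libraries of day 3 (4.13% and 4.51%), of day 0 without dox and of day 7.

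**Figure D3:**
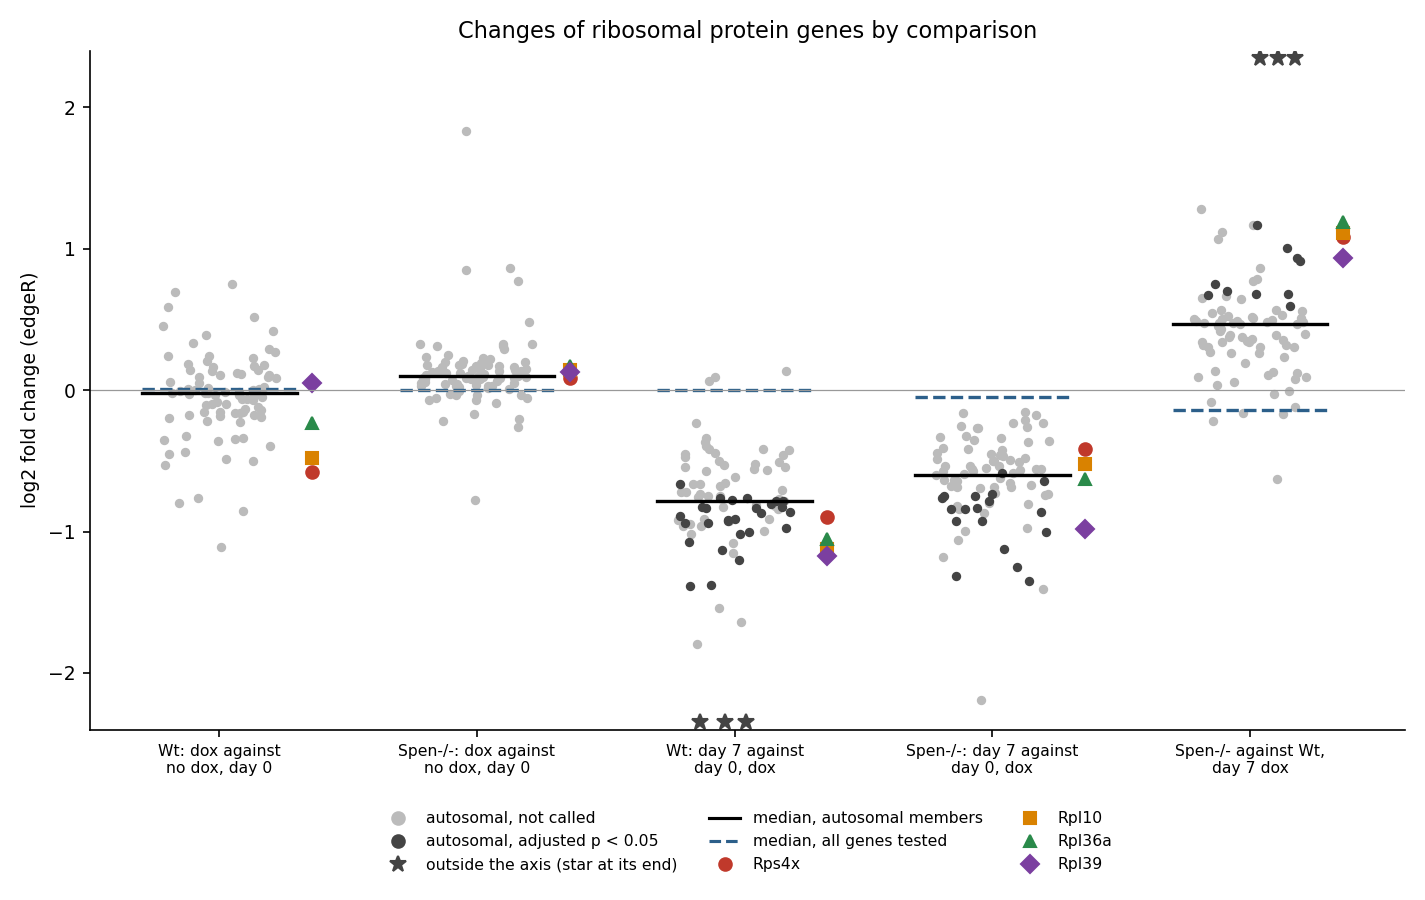
Log2 fold changes (edgeR) of the tested members in 5 comparisons, with grey points for autosomal members not called, dark points for called ones (adjusted p under 0.05), coloured symbols for the X-linked members, black lines for autosomal medians and dashed lines for medians of all genes. Stars mark 6 values outside the axis, which are Rpl10l, Rpl39l and Rpl3l (the last not called) in the comparisons with Wt day 7. Nearly all members lie below 0 from day 0 to day 7, and the X-linked symbols lie above the autosomal median in the genotype comparison at day 7.

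Calls were made among members with and without many shared stretches. Of the 44 tested members with at least 50% unique stretches, 15 were called in Wt at day 7, and of the 45 others 17 were. The genotype comparison at day 7 had 6 and 9 calls in these sets and Spen-/- day 7 had 10 and 8, with medians of -0.67 and -0.56 for the latter comparison. Rpl39, with mostly unique stretches, and Rpl36a, with mostly shared ones, both lay near a log2 difference of 1 between genotypes at day 7.

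Of the 89 members tested, edgeR called Rpl10l and Rpl39l as different between genotypes in their change from day 0 to day 7 (2 higher, 0 lower), beside 0.915% of all genes called higher. Both are autosomal paralogs of X-linked members and are best known from the testis, where they are expressed in male germ cells. Rpl10l (chromosome 12, 66283379-66284401) was at 14.1 and 12.8 CPM in dox-treated Wt ESCs and at 0 in both Wt libraries of day 7. Spen-/- cells had it at 33.9 and 48.0 CPM and then 30.3 and 19.1 CPM. Rpl39l (chromosome 16, 10170226-10174911) was at 7.35 and 6.41 CPM and then 0 and 0 in Wt, and at 26.0 and 17.6 CPM and then 15.3 and 9.65 CPM in Spen-/- cells. Wt libraries of day 7 are therefore separated from all 14 others for both genes. Against a floor of 3 reads over both Wt libraries, Rpl10l was at least 187-fold higher and Rpl39l at least 94.2-fold higher in Spen-/- than in Wt cells at day 7, and in Wt they fell at least 104-fold and 53.4-fold from day 0. The test of the genotype difference in change gave adjusted p = 0.000809 for Rpl10l and 0.00539 for Rpl39l by edgeR, with fitted values that depend on the handling of zero counts. Their unique stretches made up 92.4% and 100% of the transcript, and Rpl39l shared no stretch with another gene. The summed ESC markers fell to 187.0 and 187.5 CPM in the same 2 libraries, and their part in this result was not tested.

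Other paralogs by name were not called by edgeR in any comparison of total counts. Rpl3l, the striated muscle paralog of Rpl3, was at 0 to 9.71 CPM and at 0 in both Wt libraries of day 7. Rps27l was at 696.9 and 347.1 CPM in Spen-/- cells at day 7 and at 337.5 and 423.3 CPM in Wt, so the groups overlapped. Rpl22l1, the paralog of Rpl22, was at 36.6 and 44.0 CPM in Wt and at 29.2 and 22.9 CPM in Spen-/- cells at day 7. Rpl36al, the autosomal paralog of Rpl36a, was at 34.3 and 35.2 CPM in Wt and at 47.3 and 49.1 CPM in Spen-/- cells, in the same direction as Rpl36a. Rpl7l1 (220.8 and 296.8 CPM against 230.0 and 328.6 CPM) overlapped between genotypes at day 7, and Rps19bp1 (100.2 and 111.7 CPM against 113.3 and 129.2 CPM) did not overlap.

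Allele-specific reads were present for 2 of the 4 X-linked members, Rps4x and Rpl10, and only Rpl10 could be followed on both alleles. Rpl36a and Rpl39 had no allele-specific read in any library, as did 4 autosomal members by rule (Rpl10-ps3, Rpl36-ps4, Rpl9-ps1 and Rps12-ps3), and 66 members had more than 20 such reads in each condition. For Rpl10, reads from the Cast X chromosome were 29 of 62 and 33 of 51 in Wt ESCs without dox and 13 of 101 and 8 of 27 with dox. In Spen-/- ESCs they were 24 of 43 and 34 of 53 without dox and 12 of 26 and 17 of 35 with dox. By day 7 they were 5 of 27 and 1 of 21 in Wt, against 21 of 38 and 17 of 29 in Spen-/- cells. The Wt libraries with dox were thus low in Cast reads at both days and did not overlap with any Spen-/- library with dox. At day 3 without dox they were 14 of 34 and 19 of 54 in Wt and 10 of 26 and 4 of 25 in Spen-/- cells, which overlapped between genotypes.

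Pooled over both libraries, the Cast share of Rpl10 was 0.125 in Wt and 0.567 in Spen-/- cells at day 7, with 95% Wilson intervals of 0.0586 to 0.247 and 0.448 to 0.679. At day 0 it was 0.549 without and 0.164 with dox in Wt (intervals 0.457 to 0.637 and 0.110 to 0.238), and 0.604 and 0.475 in Spen-/- ESCs. At day 3 without dox it was also lower, at 0.375 in Wt and 0.275 in Spen-/- cells (intervals 0.281 to 0.479 and 0.171 to 0.409). Neither change from day 0 without dox passed the edgeR test of allelic reads. These intervals take each read as independent and leave out the spread between libraries. The reads carry no molecular identifiers, so copies of 1 molecule cannot be told apart and the intervals may be too narrow. In the allelic edgeR test across all genes, the log2 difference in the Cast to 129 ratio of Rpl10 between genotypes at day 7 was 3.29 (SE 1.1, edgeR adjusted p = 0.134), which did not pass, and DESeq2 gave an adjusted p of 0.0325. The edgeR result for dox in Wt at day 0 was -2.37 with an adjusted p of 1. Rps4x had a Cast share of 0 to 0.0280 in every library of both genotypes, also where Rpl10 was near 0.5. In ESCs without dox its Cast reads were 13 of 600 in Wt and 4 of 503 in Spen-/- cells. A fall of its Cast allele could therefore not be seen in this share. Its 129-specific reads, looked at after the values were seen and not tested, were 12% and 12.8% of all its reads in dox-treated Wt ESCs and 15.3% and 14.7% in Wt at day 7, and 6.18% to 8.77% in the 12 other libraries. The 4 Wt libraries with dox did not overlap with the rest.

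**Figure D4:**
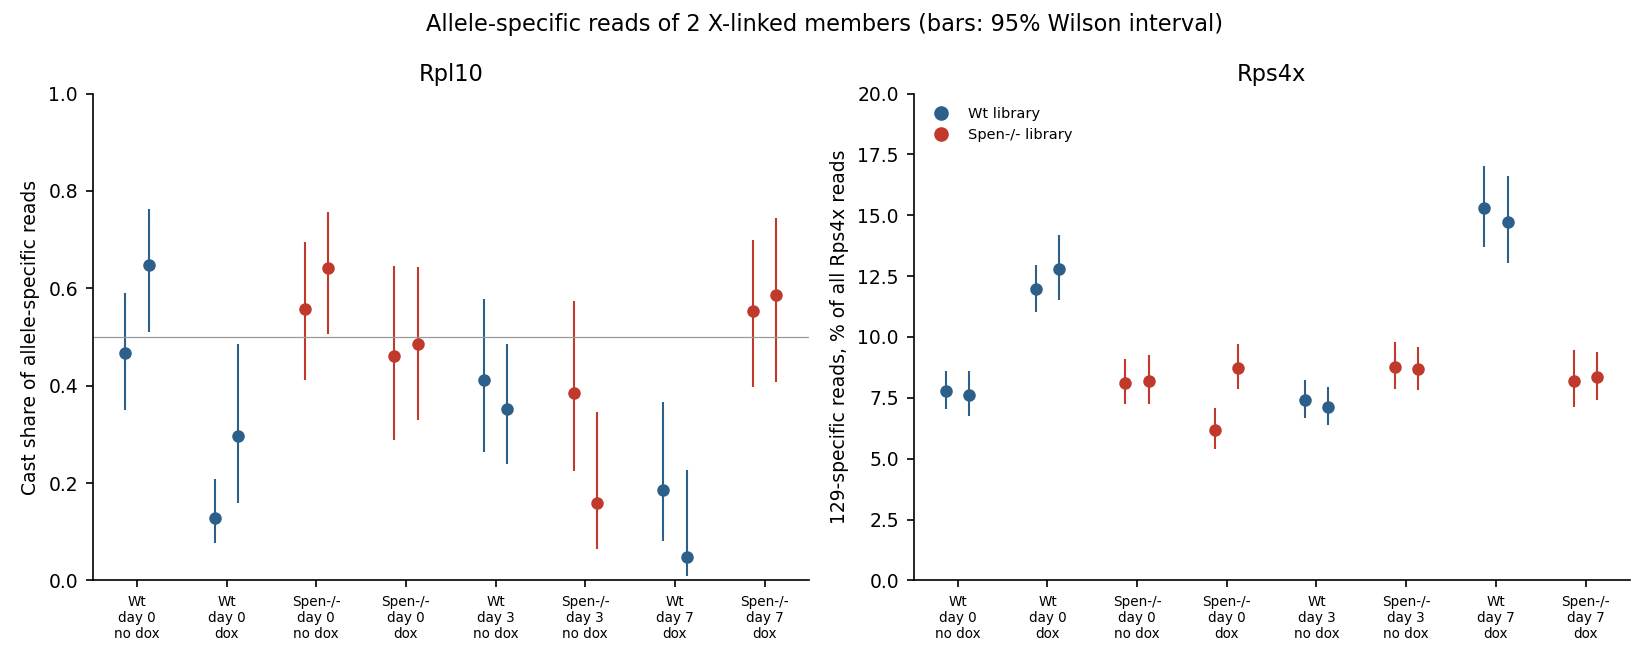
Left, the Cast share of allele-specific reads of Rpl10 and right, the 129-specific reads of Rps4x as a percentage of all its reads, per library and condition, with bars for 95% Wilson intervals. For Rpl10 the 4 dox-treated Wt libraries are at 0.0476 to 0.296, and for Rps4x the same libraries are the 4 highest.

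In the allelic comparison of genotypes at day 7, 2 of 68 members tested were called, both autosomal and in opposite directions. This is no larger a share than the 3.16% of all genes called, so the count is no result about the members, and the values of both are given as those of single genes. Rpl21 (chromosome 5, large subunit) had Cast reads in 31 of 52 and 16 of 25 in Wt and 2 of 52 and 2 of 72 in Spen-/- cells at day 7 (edgeR adjusted p = 0.0012). In the 12 libraries of the other conditions its Cast share was 0.324 to 0.565, so the Spen-/- libraries of day 7 stood apart from all others. Rpl27a (chromosome 7, large subunit) had 23 of 47 and 24 of 42 in Wt and 47 of 48 and 23 of 24 in Spen-/- cells at day 7 (edgeR adjusted p = 0.0292), and 0.339 to 0.676 elsewhere. The 10 genes nearest to each, out to 1.65 and 1.28 Mb, had median Cast shares of 0.525 and 0.505 in Spen-/- cells at day 7, and 6 of 529 and 11 of 562 other tested genes of these chromosomes were called. Rpl21 shared stretches with 82 genes and Rpl27a with 19, and only 24 to 72 allele-specific reads per library stand behind these values. The call of Rpl27a was lost without either Wt library or Spen-/- replicate 1 of day 7 (edgeR adjusted p = 0.0821 to 0.170).

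In the 9 other allelic comparisons no member passed, with 70 to 74 members tested in each. The background there was 0.478% of all genes called for dox in Wt, 0% for dox in Spen-/- ESCs and 0.163% for the difference of both. Between genotypes it was 0% at day 0 without dox, 0.382% with dox and 0% at day 3. Over time it was 0.024% for Wt and 0.0254% for Spen-/- at day 3 and 0.103% for Wt at day 7. Over these comparisons 13 of 645 member tests had an unadjusted p under 0.05 (4% of all tests), and DESeq2 called 0 (0.429%).

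The allelic ratio of autosomal members was far from balanced in many genes. Of the 64 autosomal members whose allele-specific reads exceeded 20 in each condition, 14 (21.9%) had a Cast share under 0.1 or over 0.9 over all libraries, and 19 (29.7%) lay within 0.4 to 0.6. Of 6152 other autosomal genes with this coverage, 148 (2.41%) were outside 0.1 to 0.9 and 73.2% lay within 0.4 to 0.6. Of the 69 autosomal mitochondrial ribosomal protein genes 3 (4.35%) were outside and 88.4% within. Among the highest Cast shares were those of Rps29 (9622 of 9626 reads) and Rpl38 (5208 of 5312 reads), and the lowest those of Rplp1 (50 of 3445 reads), Rpl7a (66 of 3080 reads) and Rps18 (276 of 6491 reads). These 5 genes kept their side in all 8 conditions and in both genotypes, with 79 to 1422 allele-specific reads in each library. Members with under 50% unique stretches had 9 of 31 genes outside 0.1 to 0.9 and the others 5 of 33, and the part of shared sequence in these ratios was not tested. The ratios describe placeable reads over strain variants, and the list of variants was not used here.

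**Figure D5:**
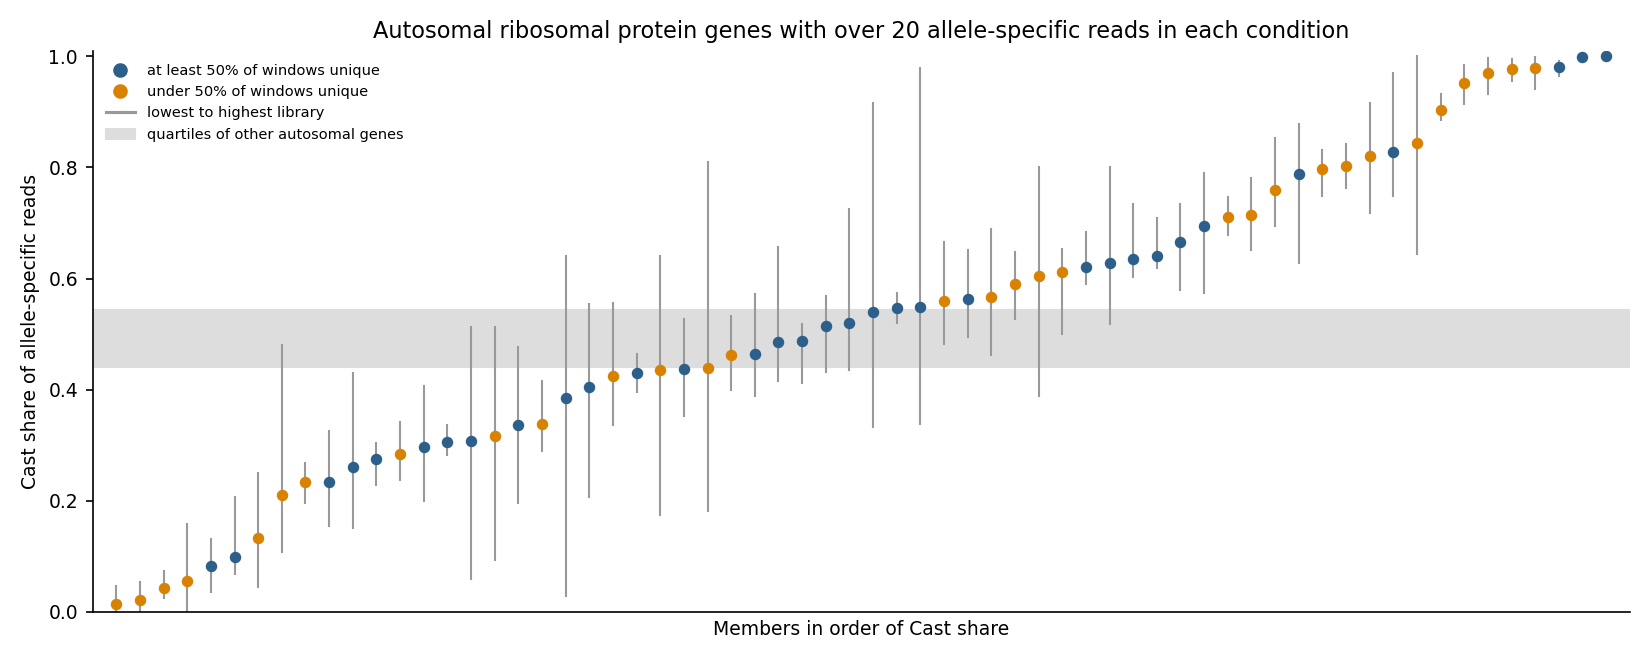
Cast share of allele-specific reads over all libraries (points, in order of their share) with the lowest to highest library (lines) for the 64 autosomal members with more than 20 such reads in each condition, coloured by the share of unique 50-base stretches, over the quartiles of other autosomal genes (grey band). The members spread over the whole range from 0.0145 to 1, while the quartiles of other genes are 0.441 and 0.544.

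Genes that work with the ribosomal proteins were followed in 5 lists. In the genotype comparison at day 7, 563 of 18150 genes were called higher in Spen-/- cells and 728 lower. Of 3 other ribosome parts all had a fitted value above 0 (median 0.88) and 1 was called, which was Fau (encoding a ubiquitin-like protein fused to a small subunit protein, log2 difference 1.15, edgeR adjusted p = 0.0077). Of 38 ribosome biogenesis genes 7 were higher, among them Rrn3 of RNA polymerase I initiation (1.6) and the X-linked Las1l of large subunit processing (1.52), and 1 was lower (Gar1, of the snoRNP for pseudouridylation, -1.39). Of 36 translation factors 3 were higher, among them Eif2s2 (1.41) and the X-linked Eif1ax (0.99), and 1 was lower, the RNA helicase Eif4a1 (-1.68). Of 10 regulators Eif4ebp1, a repressor of cap-dependent translation, was higher (1.29) and Max, the partner of MYC proteins, lower (-1.80). Of 77 mitochondrial ribosomal protein genes 6 were higher and 0 lower, with the largest values for Mrps36 (1.46) and Mrpl36 (1.25).

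The X-linked genes of these lists can be set beside the X-linked members. In the genotype comparison at day 7, Las1l, Gnl3l (1.48), Dkc1 (1.40) and Eif1ax were called higher in Spen-/- cells, and Utp14a (0.59) and Eif2s3x (0.44) did not pass (edgeR adjusted p = 0.208 and 0.465). From day 0 to day 7 in Wt, Dkc1, the pseudouridine synthase of the same snoRNP as Gar1, fell by 1.57 on the log2 scale, Utp14a by 1.5 and Eif1ax by 0.94, each with a call. In Spen-/- cells Utp14a (-1.40) and Eif1ax (-0.65) were called and Dkc1 (-0.47, edgeR adjusted p = 0.291) was not. Gnl3l was called lower at day 3 in Wt (-1.53), together with the autosomal Eif4a2 (-1.25), while Gar1 was higher (1.31).

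From day 0 to day 7 in Wt, all 3 other ribosome parts fell, among them Rack1 (a scaffold on the small subunit, log2 change -0.96). With them 9 of 38 biogenesis genes, 5 of 36 translation factors (Eif1ax and Eif4g2, -0.91, among them), 2 of 10 regulators (Mycn, -2.32, and Eif4ebp1, -1.19) and 2 of 77 mitochondrial genes (Mrps24, -1.39, and Mrpl15, -1.12) fell, and no gene of these lists was called higher. For the mitochondrial genes this is a smaller share than the 3.09% of all genes called lower. In Spen-/- cells the counts of falls were 1 (Rack1, -0.99), 5 (Gar1, -1.84, and Rrp9, -1.68, among them), 6 (Eif4a1, -2.18, and Eif3i, -1.21, among them), 2 (Max, -2.52, and Mycn, -1.47) and 5 (Mrps5, -1.59, and Mrpl34, -1.08, among them), and 1 gene rose, the S6 kinase Rps6kb1 (0.94), beside 903 of 18150 genes called lower and 609 higher. The median change of biogenesis genes in Wt, -0.78, was close to that of the members, -0.81, whereas mitochondrial ribosomal protein genes had a median of -0.19 in Wt and -0.15 in Spen-/- cells. The change to day 7 differed between genotypes in 1 gene of these lists, Eif4a1 (-1.51 in Spen-/- relative to Wt, edgeR adjusted p = 0.00513).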

How the data were processed

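RNA-seq counts of 16 libraries (8 conditions, 2 each) were used. Per the labels and the study's methods, the authors made Smart-seq2 libraries, sequenced 50-base single-end reads, aligned them to an mm10 genome masked at strain variants with HISAT2 2.2.1, split them by allele with SNPsplit, and counted them per gene with HTSeq 0.12.4 without multi-mapping reads. The strand setting is not given in the sources used here. The deposited counts per gene were in 3 columns (129, Cast and unassigned reads), which were summed for totals. Libraries held 7571566 to 14822867 reads on genes.

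The members and lists were chosen with earlier results of these data known. Totals were tested with edgeR 4.0.16 (R 4.3.3; filterByExpr, TMM, quasi-likelihood, 1 fit of all libraries, Benjamini-Hochberg, threshold 0.05), and Cast against 129 reads in an edgeR fit with a library term. DESeq2 1.42.0, RLE scaling, no filter, a replicate block, compared libraries alone and leaving out each library were alternatives. Both fits were tested on simulated data. Named by rule were Spen and Xist, every X-linked member, paralogs by symbol and Rps19bp1, up to 3 called members per comparison and direction with the largest change, the 3 members highest and lowest in mean RPKM and in Cast share, autosomal members called in allelic reads, the 2 members with the largest and the 2 with the smallest spread, and up to 2 called genes per list, comparison and direction with the X-linked genes of the lists. Other names were chosen after their values were seen. CPM used TMM, RPKM exon length. Some members and list genes that the rule would name are not reported here.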

Additional observations from a re-analysis of the deposited data

Results flagged for a closer look

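The change from day 0 to day 7 with dox differed between the genotypes for Rpl10l and Rpl39l by a test of the difference itself (edgeR's quasi-likelihood interaction test with Benjamini-Hochberg adjustment). The fitted difference, Spen-/- minus Wt on the log2 scale, was 9.33 for Rpl10l (SE 0.950, adjusted p = 0.000809) and 8.29 for Rpl39l (SE 1.18, adjusted p = 0.00539). Both genes had 0 reads in both Wt libraries of day 7, so these fitted values depend on the handling of zero counts and are no bound. The call held in all 14 alternatives for Rpl10l (8.98 to 9.66) and in 13 of 14 for Rpl39l (7.94 to 8.63).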

How the results depend on the processing

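No tested result changed direction. The untested summed share changed sign for Spen-/- day 3 against day 0 with another denominator, and for dox in Wt at day 0 without 1 library. In the latter, the means were 2.4% with dox and 2.37% without, and dox replicate 2 alone was at 2.16%. Counts of called members in the total reads moved by over 1.5 times as follows. Higher in Spen-/- than Wt at day 7, 15 became 9 without the filter, 0 with the compared libraries alone, 28 with DESeq2 and 4 to 12 without 1 library. Lower at day 7 in Wt, 32 became 18 with the compared libraries alone, 57 with DESeq2 and 5 to 33 without 1 library. Lower at day 7 in Spen-/- cells, 18 became 0 alone, 41 with DESeq2 and 4 to 14 without 1 library. The 1 call at day 3 in Spen-/- cells became 0 without the filter or alone, 2 with DESeq2 and 0 without any 1 library. Counts of 0 became 4 with DESeq2 and 0 to 1 without 1 library for Wt at day 3, 1 without the filter and 8 with DESeq2 between genotypes at day 0 with dox, 2 with DESeq2 for dox in Wt, and 1 with DESeq2 for the difference in dox effect. The 2 calls of the day 7 difference became 1 alone. In allelic reads at day 7, DESeq2 called 1 X-linked member in place of 0, and the 2 autosomal calls became 0 alone, 3 with DESeq2 and 1 to 4 without 1 library. With all reads as the denominator, the log2 ratio of summed shares was 0.0729 in place of 0.25 between genotypes at day 7, 0.0261 in place of 0.15 at day 0 without dox, and 0.11 in place of -0.06 at day 3 in Spen-/- cells. The cause of these moves was not tested, except that leaving out libraries leaves fewer samples. These counts, here and above, stand without the share of all genes called in the same refit. They therefore do not compare members with other genes.

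With the replicate block, the counts at day 7 were 14 between genotypes, 35 in Wt and 20 in Spen-/- cells. Correlations of same-numbered libraries were -0.213 to 0.343 (28 pairs of conditions, median 0.0556), so the numbers were not taken to pair the samples. With 2 libraries per condition and few reads over variants, a member that did not pass may still have changed, also by more than a small amount.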
